A study of Mus musculus with 9 samples.

Results

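Smooth muscle contractile genes of the mammary myoepithelium were followed in EYFP+ mammary cells of 3 mouse genotypes. The set held 10 genes, found in the count table by Ensembl identifier, out of the 55450 genes counted. They encode actins (Acta2, Actg2), tropomyosins (Tpm1, Tpm2), actin-binding proteins of the thin filament (Tagln, Cnn1), the smooth muscle myosin heavy chain (Myh11), a regulatory myosin light chain (Myl9), the kinase that phosphorylates that light chain (Mylk) and the oxytocin receptor (Oxtr). All 10 were among the 19357 genes that passed the filter on low counts.

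The mammary duct has an inner layer of luminal cells, which carry keratins 8 and 18, and an outer layer of basal myoepithelial cells. Myoepithelial cells contract like smooth muscle. When oxytocin binds its receptor, calcium is released from internal stores, myosin light chain kinase is activated, and phosphorylated myosin pulls on actin filaments to eject milk. Transcription of this machinery is classically driven by serum response factor (SRF), which binds the CArG box together with cofactors of the myocardin family. YAP and TAZ, which the kinases LATS1 and LATS2 restrain, bind DNA through TEAD factors, whose core motif is CATTCC.

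Every mouse was an adult nulliparous animal that carried lsl-EYFP, a reporter switched on by Cre, and K8CreERT2, in which the keratin 8 promoter drives a Cre that tamoxifen activates. Control mice had these alleles alone, LATS1/2-KO mice also had floxed Lats1 and Lats2 (LATS1/2f/f), and LATS1/2-Sox9-KO mice had floxed Sox9 (Sox9f/f) in addition. All mice, controls included, received 2 mg of tamoxifen by intraperitoneal injection on 5 days, and live EYFP+ cells were sorted 7 days after the last dose. The sorted cells thus descended from keratin 8-expressing cells, and myoepithelial cells were not the cells targeted. Each genotype gave 3 libraries, and the labels do not say whether a library was 1 mouse or a pool. If a group's libraries came from 1 pool, the p-values measure technical spread alone. Total counts ranged from 44167762 to 47003587 in control, from 50508666 to 61745346 in LATS1/2-KO and from 55503365 to 61967651 in LATS1/2-Sox9-KO.

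The targeted genes were examined before the contractile genes. Lats1 had a mean normalized count (a count scaled to the mean library size after TMM normalization) of 5847 in control, 2116 in the libraries labelled LATS1/2-KO and 1870 in those labelled LATS1/2-Sox9-KO. Lats2 did not fall, with means of 1041, 1471 and 1592. Sox9 had means of 21598, 9715 and 7343, so the libraries labelled LATS1/2-Sox9-KO differed little in it from the second group (log2 fold change -0.40, adjusted p = 0.250). Counts over a whole gene still include transcripts that have lost an exon, so these levels do not measure the deletion itself. The group names below are those of the labels. The identity of the sorted cells was checked on 23 luminal markers. Keratin 18, the most abundant, averaged 3211, 5257 and 9253 fragments per kilobase of exon, scaled for library size (FPKM), in the 3 groups, in that order. Some other luminal markers, chosen after their values were seen, went the other way. The transcription factors Foxa1 (121, 10.3 and 8.83 FPKM) and Gata3 (60.8, 11.6 and 11.8), the progesterone receptor Pgr (49.3, 0.824 and 0.0755) and the prolactin receptor Prlr (214, 7.63 and 2.71) had lower means in both knockout groups. Not every other luminal marker fell. Wfdc18, also chosen after its values were seen, had 5891, 9222 and 5263 raw counts in control and 10625, 18138 and 12909 in LATS1/2-KO. It had 8591, 7624 and 9676 in LATS1/2-Sox9-KO. The results over all 23 luminal markers are given with the basal markers below. The sum over the 10 contractile genes was 94.0 to 96.0 FPKM in the control libraries.

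Promoter sequences from RefSeq (build GRCm38.p6) were held for 7 of the 10 genes, and the 250 bases before the start site given with them were searched. GENCODE M21 starts some transcripts further upstream, so that 217 of these bases in Acta2, 193 in Tpm1, 44 in Myl9 and 29 in Mylk lie in its exons. For Mylk the start site used, at 34784950, is an internal one, because the gene begins at 34745210. The whole Mylk window thus lies inside the gene and is not the region before its first start site. These 4 genes are shown because they hold a match to the SRF or the TEAD motif, Myl9 and Mylk as the bases before those exons, and Acta2 and Tpm1 as the 30 bases around each match, all of which lie inside the first exon of GENCODE. Capitals mark a CArG box or a CArG box in which a single A or T of the core is G or C, and GGAATG or CATTCC, the TEAD core on either strand. The relaxed CArG box was added after the Acta2 sequence was seen. No matches overlapped.
Acta2 (chr19:34255502-34255531, minus strand): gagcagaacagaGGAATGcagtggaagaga
Acta2 (chr19:34255438-34255467, minus strand): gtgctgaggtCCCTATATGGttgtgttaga
Acta2 (chr19:34255388-34255417, minus strand): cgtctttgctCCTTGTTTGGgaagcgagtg
Myl9 (chr2:156775214-156775419, plus strand): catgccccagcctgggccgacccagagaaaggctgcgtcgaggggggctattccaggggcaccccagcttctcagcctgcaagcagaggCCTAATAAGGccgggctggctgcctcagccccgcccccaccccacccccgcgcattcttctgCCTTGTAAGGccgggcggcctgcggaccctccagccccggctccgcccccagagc
Tpm1 (chr9:67049252-67049281, minus strand): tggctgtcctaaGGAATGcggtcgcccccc
Mylk (chr16:34784700-34784920, plus strand): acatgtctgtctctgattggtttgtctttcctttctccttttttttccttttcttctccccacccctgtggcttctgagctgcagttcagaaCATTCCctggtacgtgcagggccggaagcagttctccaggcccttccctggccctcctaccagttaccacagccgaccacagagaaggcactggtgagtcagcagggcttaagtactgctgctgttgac

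An exact CArG box was found in Myl9, starting 161 bases before the RefSeq start site. Myl9 also had a relaxed box at 99 bases, and Acta2 had relaxed boxes at 84 and 34 bases. A TEAD core lay 146 bases before the start in Acta2, 56 bases before it in Tpm1 and 158 bases before the internal start in Mylk. Over all 32851 promoters of the table, the exact CArG box was present in 1.47%, the relaxed one in 7.24% and the TEAD core in 12.6%. A match is a string of letters and not a bound site. The promoters of Tpm2, Cnn1 and Oxtr held none of these strings in this window. Of the 4 genes shown, Acta2, Myl9 and Tpm1 were called higher in LATS1/2-KO and Mylk was called lower. Whether these strings bear on the changes was not tested.

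The first comparison asked how contractile genes differed in cells with floxed Lats1 and Lats2. A gene counted as called when its log2 fold change was beyond 1 in either direction and its adjusted p was 0.05 or less (edgeR's quasi-likelihood test, Benjamini-Hochberg adjustment over all 19357 genes). Against control, 6 of the 10 genes were called higher in LATS1/2-KO and 2 were called lower. Over all genes tested, 17.1% were called higher and 17.5% lower. The 6 that rose were the actin Acta2, both tropomyosins, the thin filament proteins Tagln and Cnn1, and the light chain Myl9. The 2 that fell were the myosin heavy chain Myh11 and the light chain kinase Mylk. The median log2 fold change was 1.26 over the 10 genes and 0.04 over all genes tested. The libraries of the groups did not overlap in the same 6 and 2 genes, against 31.3% of all genes tested that were higher and 30.3% that were lower in this way.

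**Figure D1:**
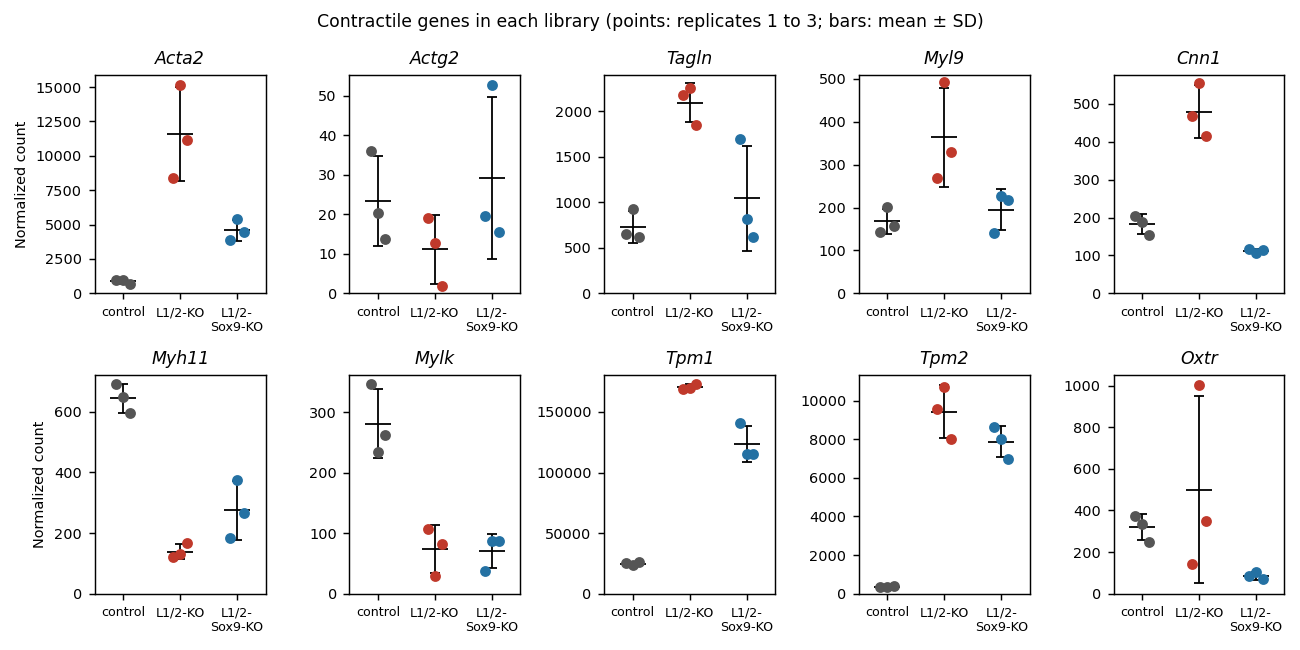
Normalized count (linear axis from 0, its own scale for each gene) of the 10 contractile genes in every library, with points for replicates 1 to 3 from left to right and bars for mean ± SD; L1/2 stands for LATS1/2. Acta2, Tpm1 and Tpm2 stand far above control in both knockout groups, Myh11 and Mylk stand below it, and Oxtr is spread from 143 to 1004 within LATS1/2-KO.

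Acta2 encodes smooth muscle alpha-actin, the usual histological marker of myoepithelium. The gene (ENSMUSG00000035783) lies on chromosome 19 of GRCm38 from 34241090 to 34255590, on the minus strand. Its normalized counts were 974.3, 992.2 and 662.1 in control, 8402, 15186 and 11128 in LATS1/2-KO, and 3904, 5431 and 4427 in LATS1/2-Sox9-KO. The 3 groups did not overlap. The mean was 13.2 times the control mean in LATS1/2-KO, a log2 fold change of 3.72 (SE 0.26, n = 3, adjusted p = 3.88e-06 by edgeR's test). Of its 2146 distinct 50-base stretches, 7 also occurred in other genes, so reads could rarely be confused with those of other actins.

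Actg2 encodes the enteric gamma-actin of smooth muscle (ENSMUSG00000059430, chromosome 6 from 83512905 to 83536265, minus strand). Normalized counts of Actg2 were 36.0, 20.4 and 13.7 in control, 19.1, 12.7 and 1.8 in LATS1/2-KO, and 19.5, 52.8 and 15.5 in LATS1/2-Sox9-KO. The groups overlapped in every comparison. The gene had 2 to 53 counts per library, its LATS1/2-KO libraries spanned 10.4 times, and the difference did not pass the test (log2 fold change -1.06 in LATS1/2-KO against control, SE 0.80, adjusted p = 0.288). Whether Acta2 and Actg2 differed from each other in their change was not tested.

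Tropomyosins lie along the actin filament and gate the access of myosin. Tpm1 (ENSMUSG00000032366, chromosome 9 from 67022590 to 67049406, minus strand) was the most abundant of the set per exon length in every library. The libraries gave Tpm1 normalized counts of 25058, 23355 and 25773 in control, 169189, 170074 and 173158 in LATS1/2-KO, and 140646, 115438 and 114918 in LATS1/2-Sox9-KO. Within LATS1/2-KO the highest library was 1.02 times the lowest, the tightest spread in the set. The log2 fold change against control was 2.79 (SE 0.11, adjusted p = 3.21e-07).

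Tpm2 (ENSMUSG00000028464, chromosome 4 from 43514711 to 43523765, minus strand) encodes beta-tropomyosin. Normalized counts of Tpm2 were 331.7, 320.9 and 373.4 in control, 9584, 10725 and 7989 in LATS1/2-KO, and 8611, 8013 and 6991 in LATS1/2-Sox9-KO. The mean of LATS1/2-KO was 27.6 times that of control, and its log2 fold change of 4.79 (SE 0.16, adjusted p = 1.17e-07) was the largest of the 10. Control and knockout libraries were far apart, while the libraries of the 2 knockout groups overlapped. Tropomyosin genes make muscle and non-muscle isoforms by alternative splicing, and 21 transcripts are annotated for Tpm1. Counts per gene do not separate these isoforms.

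Tagln encodes transgelin (SM22 alpha), an actin-binding protein made early in smooth muscle differentiation (ENSMUSG00000032085, chromosome 9 from 45929619 to 45936058, minus strand). In normalized counts, Tagln was at 647.2, 927.6 and 614.8 in control, 2179, 2259 and 1851 in LATS1/2-KO, and 1700, 816.1 and 617.6 in LATS1/2-Sox9-KO. All LATS1/2-KO libraries were above all control libraries, with a log2 fold change of 1.52 (SE 0.34, adjusted p = 0.00338). The third group was split, with replicate 1 near the LATS1/2-KO libraries and the other two within the control range. An antisense gene on the opposite strand, Gm48529, shares 1241 exonic bases with Tagln and Pcsk7 shares 108, and whether reads over these bases were told apart by strand is not known, so the Tagln count is uncertain there.

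Cnn1 encodes calponin 1, which binds actin and inhibits the myosin ATPase (ENSMUSG00000001349, chromosome 9 from 22099216 to 22109630, plus strand). Calponin 1 had normalized counts of 204.1, 189.4 and 154.3 in control, 468.4, 555.0 and 415.0 in LATS1/2-KO, and 117.0, 107.6 and 113.9 in LATS1/2-Sox9-KO. The groups fell into 3 separate bands, with LATS1/2-KO on top and LATS1/2-Sox9-KO at the bottom. The log2 fold change of LATS1/2-KO against control was 1.39 (SE 0.20, adjusted p = 0.000278).

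The myosin heavy chain went the other way. Myh11 encodes the smooth muscle myosin heavy chain, a late and specific marker of the contractile state (ENSMUSG00000018830, chromosome 16 from 14194535 to 14291372, minus strand). The normalized counts of Myh11 were 691.3, 649.8 and 596.2 in control, 120.4, 129.6 and 166.9 in LATS1/2-KO, and 183.8, 376.7 and 266.0 in LATS1/2-Sox9-KO. Every knockout library was below every control library. The control mean was 4.65 times that of LATS1/2-KO (log2 fold change -2.21, SE 0.27, adjusted p = 9.56e-05). In FPKM, Acta2 was 3.84 to 5.28 times Myh11 in the control libraries, 231 to 405 times in LATS1/2-KO and 49.9 to 73.5 times in LATS1/2-Sox9-KO.

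Myl9 encodes the regulatory light chain that is phosphorylated during contraction (ENSMUSG00000067818, chromosome 2 from 156775420 to 156781658, plus strand). Normalized counts were 143.8, 200.7 and 158.1 in control, 269.8, 492.3 and 330.2 in LATS1/2-KO, and 141.1, 227.2 and 217.7 in LATS1/2-Sox9-KO. The LATS1/2-KO libraries were all above control, with a log2 fold change of 1.12 (SE 0.29, adjusted p = 0.00832). Without LATS1/2-KO replicate 2, the highest library, the log2 fold change was 0.83 and Myl9 was no longer called.

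Mylk encodes myosin light chain kinase, the enzyme that starts contraction (ENSMUSG00000022836, chromosome 16 from 34745210 to 35002420, plus strand). The libraries had 345.6, 234.7 and 262.6 normalized counts in control, 107.3, 29.7 and 82.1 in LATS1/2-KO, and 37.1, 87.7 and 86.5 in LATS1/2-Sox9-KO. Both knockout groups were below control and overlapped each other. The log2 fold change of LATS1/2-KO against control was -1.95 (SE 0.48, adjusted p = 0.00622). The gene makes a long and a short kinase and a kinase-free product from separate start sites, which these counts do not separate.

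Oxtr encodes the receptor through which oxytocin makes myoepithelium contract (ENSMUSG00000049112, chromosome 6 from 112473683 to 112489943, minus strand). For the receptor, normalized counts were 374.6, 334.5 and 250.2 in control, 143.4, 1004.0 and 349.3 in LATS1/2-KO, and 82.6, 105.6 and 68.3 in LATS1/2-Sox9-KO. The LATS1/2-KO libraries lay on both sides of control, and the highest was 7.0 times the lowest. The log2 fold change of 0.64 (SE 0.55, adjusted p = 0.351) did not pass the test, and without LATS1/2-KO replicate 2 it was -0.39. Every library of LATS1/2-Sox9-KO was below every library of the other groups.

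**Figure D2:**
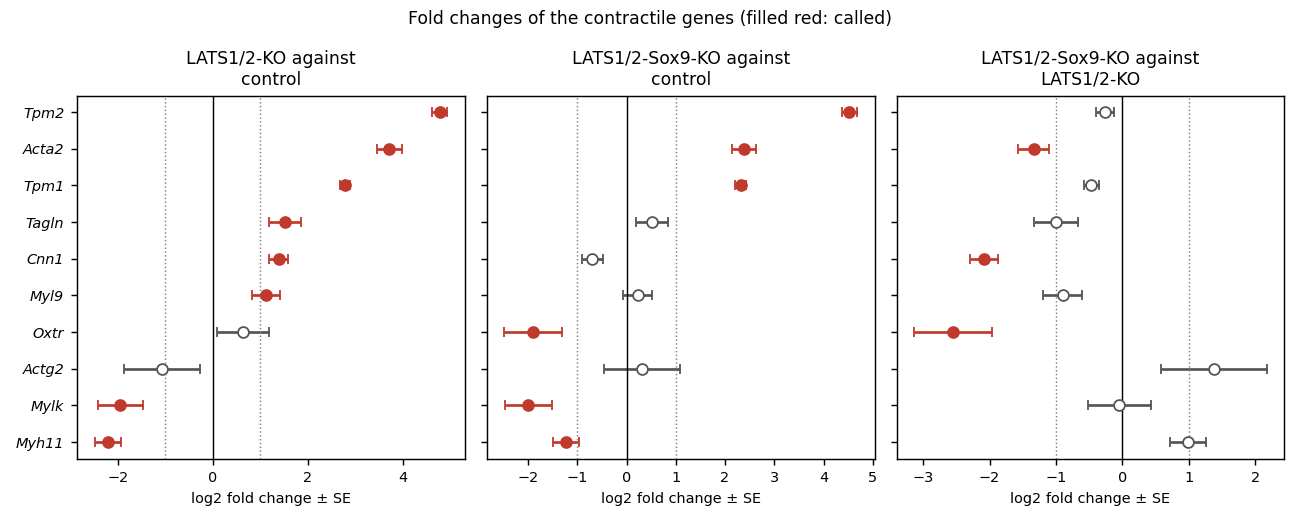
Log2 fold change ± SE (edgeR, 3 libraries per group) of the 10 genes in the 3 comparisons, each panel with its own linear axis, with called genes in filled red and dotted lines at the fold threshold. Against control, Tpm2 reaches 4.79 in LATS1/2-KO and 4.52 in LATS1/2-Sox9-KO, Myh11 and Mylk are negative in both, and Oxtr is called lower in LATS1/2-Sox9-KO, where it is -1.90.

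LATS1/2-Sox9-KO was then set against control, with the same control libraries. Here 3 of the 10 genes were called higher (Acta2, Tpm1 and Tpm2) and 3 lower (Myh11, Mylk and Oxtr), against 17.8% and 19.6% of all genes tested. The libraries did not overlap for the same 3 genes that were higher and for 4 that were lower, the fourth being Cnn1, against 34.9% and 33.8%. The median log2 fold change was 0.27 over the 10 and 0.01 over all genes tested. The log2 fold change was 2.39 (SE 0.24, adjusted p = 2.33e-05) for Acta2, 2.32 (SE 0.11, adjusted p = 5.11e-07) for Tpm1 and 4.52 (SE 0.15, adjusted p = 9.48e-08) for Tpm2. Those that fell were Mylk at -1.99 (SE 0.48, adjusted p = 0.00513), Oxtr at -1.90 (SE 0.58, adjusted p = 0.0173) and Myh11 at -1.23 (SE 0.26, adjusted p = 0.00263). Tagln at 0.52 (adjusted p = 0.208), Myl9 at 0.22 (adjusted p = 0.540) and Actg2 at 0.32 (adjusted p = 0.744) did not pass. Cnn1 at -0.69 (adjusted p = 0.0145) passed the p threshold but not the fold threshold. Without LATS1/2-Sox9-KO replicate 1, neither Myh11 (-0.99) nor Oxtr (-1.86) was called, which left 1 gene called lower. Without replicate 3 of that group, Oxtr (-1.75) was not called either.

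Setting LATS1/2-Sox9-KO directly against LATS1/2-KO asked which contractile genes differed when Sox9 was floxed as well. None of the 10 was called higher and 3 were called lower, against 1.55% and 2.16% of all genes tested. The median log2 fold change was -0.68 over the 10 genes and -0.02 over all genes tested. Cnn1 had a log2 fold change of -2.09 (SE 0.21, adjusted p = 0.00149), the actin Acta2 one of -1.34 (SE 0.23, adjusted p = 0.0135) and Oxtr one of -2.55 (SE 0.59, adjusted p = 0.0345). At an unadjusted p under 0.05, 1 gene was higher (Myh11), and DESeq2 called 0 higher. Myh11 was called higher with no filter on low counts (1.02), with the GC content offset (1.02) and without LATS1/2-Sox9-KO replicate 1 (1.23). The libraries of the groups did not overlap for 1 gene that was higher (Myh11) and 6 that were lower, against 14.6% and 13.3% of all genes tested.

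The other 7 genes were not called. Tpm1 was lower with a log2 fold change of -0.47 (SE 0.11, adjusted p = 0.0332), under the fold threshold. Tagln at -1.005 (SE 0.33, adjusted p = 0.105) and Myl9 at -0.90 (SE 0.29, adjusted p = 0.0990) did not pass the p threshold. Myh11 at 0.99 (SE 0.27, adjusted p = 0.0570) was higher but just missed both the fold and the p threshold. Tpm2 at -0.26 (adjusted p = 0.277), Mylk at -0.05 (adjusted p = 0.972) and Actg2 at 1.38 (adjusted p = 0.343) did not pass. Oxtr lost its call in 9 of 19 alternative settings, with a log2 fold change of -1.50 when LATS1/2-KO replicate 2 was left out.

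FPKM divides counts by the joint length of all annotated exons of a gene, so an order of different genes depends on that length. On this scale the order in control was Tpm1 (mean 70.8 FPKM), Acta2 (7.41), Tagln (6.82), Myl9 (2.68), Tpm2 (2.18), Myh11 (1.58), Oxtr and Cnn1 (both 1.24), Mylk (0.464) and Actg2 (0.279). In LATS1/2-KO the order was Tpm1 (489), Acta2 (97.9), Tpm2 (60.2), Tagln (19.6), Myl9 (5.82), Cnn1 (3.26), Oxtr (1.94), Myh11 (0.340), Actg2 (0.134) and Mylk (0.120). In LATS1/2-Sox9-KO it was Tpm1 (354), Tpm2 (50.3), Acta2 (38.8), Tagln (9.76), Myl9 (3.12), Cnn1 (0.766), Myh11 (0.674), Actg2 (0.349), Oxtr (0.332) and Mylk (0.116). Neighbours whose libraries overlapped were Acta2 with Tagln, Myl9 with Tpm2, Oxtr with Cnn1 and Mylk with Actg2 in control, Cnn1 with Oxtr and Actg2 with Mylk in LATS1/2-KO, and Tpm2 with Acta2, Cnn1 with Myh11, Myh11 with Actg2 and Actg2 with Oxtr in LATS1/2-Sox9-KO. The other neighbours did not overlap. In LATS1/2-KO, Tpm2 thus stood above Tagln and Myl9, and Myh11 stood below Cnn1 and Oxtr. The sum over the 10 genes was 94.0 to 96.0 FPKM in control, 646 to 721 in LATS1/2-KO and 423 to 511 in LATS1/2-Sox9-KO, and Tpm1 made up most of it in every library.

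Most contractile genes have non-muscle relatives that any cell uses, and Actb, Tagln2, Cnn2, Cnn3, Myh9, Myh14 and Myl12a were more abundant than the smooth muscle genes of their families in every library. Tpm1 was an exception, below Tpm4 but above Tpm3 in FPKM in every library. The joint exon length used was 6485 bases for Tpm1 and 2203 for Tpm4. In raw counts Tpm1 was above Tpm4 in every library, so their order depends on these lengths. Of 22 relatives, 18 were tested in LATS1/2-KO against control, where 5 were called higher and 3 lower (median of the log2 fold changes 0.52). All genes tested had 17.1% called higher and 17.5% lower. The 5 were calponin 2 (Cnn2, 2.90, SE 0.23), skeletal actin (Acta1, 2.17, SE 0.67), tropomyosin 4 (Tpm4, 1.94, SE 0.11), the non-muscle light chain Myl12a (1.63, SE 0.12) and beta-actin (Actb, 1.02, SE 0.14). The non-muscle myosin heavy chain Myh14 (-1.86, SE 0.18), the light chain Myl6b (-1.23, SE 0.23) and Mylk2 (-2.86, SE 0.90), the skeletal muscle light chain kinase, were called lower. Mylk2 had a mean of 11.7 normalized counts in control, and Acta1 one of 13.1. The other myosin heavy chains, Myh9 (-0.22, adjusted p = 0.343) and Myh10 (-0.06), and gamma-actin Actg1 (-0.11, adjusted p = 0.459) did not pass. Of the vasopressin receptors related to Oxtr, Avpr2 had no count in any library and Avpr1a had too few to be tested. With Sox9 floxed as well (LATS1/2-Sox9-KO against LATS1/2-KO), 1 of the 18 was called, Mylk2 (4.52, SE 0.89, adjusted p = 0.0196), which was higher. Its raw counts were only 1, 4 and 0 in LATS1/2-KO and 60, 40 and 18 in LATS1/2-Sox9-KO. Without LATS1/2-KO replicate 3, or without LATS1/2-Sox9-KO replicate 1 or 2, no relative was called higher. Here and for the later lists, the shares over all genes tested in that comparison were 1.55% higher and 2.16% lower.

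**Figure D3:**
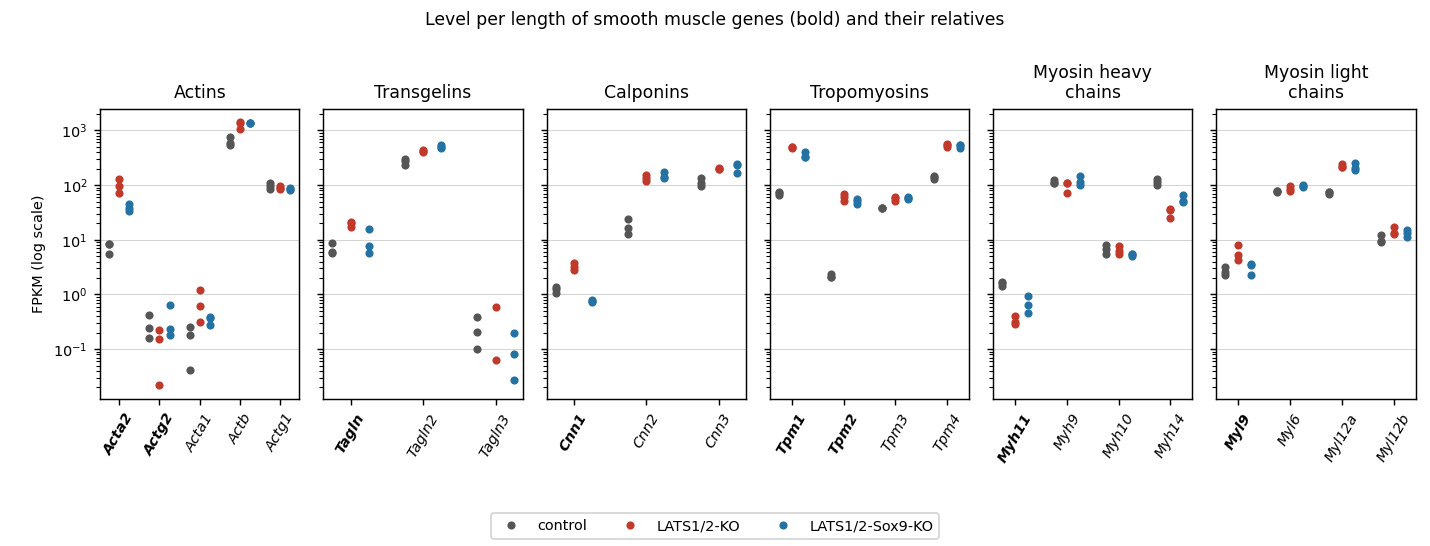
FPKM on a log axis of contractile genes (bold) and relatives in 6 protein families, with a point for each of the 3 libraries per group; a library at 0 (Tagln3 in 1 LATS1/2-KO library) has no point, and light chain kinases and receptors are not drawn. Non-muscle relatives such as Actb, Tagln2, Cnn2, Myh9 and Myl12a lie above the smooth muscle genes of their family, and Tpm1 comes near Tpm4 in LATS1/2-KO.

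Some of the smooth muscle genes were also set against a single relative as the ratio of their FPKM in each library. Such a ratio depends on the relative chosen and on the exon lengths of both genes. Acta2 was 0.754 to 1.55% of Actb in control, 6.58 to 9.52% in LATS1/2-KO and 2.42 to 3.36% in LATS1/2-Sox9-KO, so it rose relative to the common actin too. Tagln was 1.95 to 3.15% of Tagln2 in control, 3.88 to 5.18% in LATS1/2-KO and 1.14 to 2.92% in LATS1/2-Sox9-KO. Tpm2 was 1.53 to 1.62% of Tpm4 in control and 9.53 to 12.5% in LATS1/2-KO. Cnn1 was at 4.28 to 9.89% of Cnn2 in control, 2.09 to 3.23% in LATS1/2-KO and 0.456 to 0.568% in LATS1/2-Sox9-KO, so it was lower relative to Cnn2 in LATS1/2-KO although its own level was higher. Against Cnn3 it went the other way in LATS1/2-KO, at 0.777 to 1.33% in control and 1.41 to 1.95% in LATS1/2-KO. In LATS1/2-Sox9-KO, Cnn1 was 0.297 to 0.473% of Cnn3, below every control library, as it was against Cnn2. Myl9 was 3.11 to 4.75% of Myl12a in control and 2.04 to 3.26% in LATS1/2-KO, where the ranges overlapped, and 1.09 to 1.81% in LATS1/2-Sox9-KO, below every control library. Tpm1 was 50.3 to 52.4% of Tpm4 in control and 86.3 to 99.2% in LATS1/2-KO. Myh11 was 1.20 to 1.58% of Myh9 in control and 0.272 to 0.441% in LATS1/2-KO. Against Myh14, which was itself called lower, the ranges overlapped, at 1.11 to 1.56% in control and 0.811 to 1.28% in LATS1/2-KO.

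Other structural genes of smooth muscle had calls in both directions as well. Of 24 listed genes, 23 were tested in LATS1/2-KO against control, where 11 were called higher and 5 lower (median of the log2 fold changes 0.93). The shares over all genes tested were 17.1% higher and 17.5% lower. Caldesmon (Cald1), which binds actin and tropomyosin, had the largest rise. Its counts, normalized, were 733.0, 917.4 and 444.3 in control and 88807, 75505 and 78121 in LATS1/2-KO, with a log2 fold change of 6.85 (SE 0.27, adjusted p = 2.49e-07). Desmin (Des), the intermediate filament of muscle, had the largest fall, from 104.4, 62.4 and 130.7 in control to 1.0, 5.9 and 3.6 in LATS1/2-KO (log2 fold change -4.74, SE 0.59, adjusted p = 0.000104). Caldesmon is spliced into smooth muscle and non-muscle forms that were not separated. By its mean over the 9 libraries, the most abundant gene of the list per exon length was Csrp1, a LIM-domain protein of actin filaments (0.51, under the fold threshold), although the small heat shock protein gene Cryab was above it in LATS1/2-KO replicate 2 and in every LATS1/2-Sox9-KO library.

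Among the other structural genes, chosen after their values were seen, the LIM-domain protein Fhl1 (4.14, SE 0.23) and the small heat shock protein Cryab (3.95, SE 0.33) rose. The actin nucleator leiomodin 1 (Lmod1, -2.46), the intermediate filament protein synemin (Synm, -2.32), synaptopodin 2 (Synpo2, -2.77) and Pdlim3 (-3.71) fell. In LATS1/2-Sox9-KO against LATS1/2-KO, 2 of the 23 were called, both lower. These were Pdlim3 (-2.27, SE 0.44, adjusted p = 0.0189) and the integrin Itga8 (-2.14, SE 0.26, adjusted p = 0.00376). Itga8 did not pass in LATS1/2-KO against control (-0.12, adjusted p = 0.708).

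**Figure D4:**
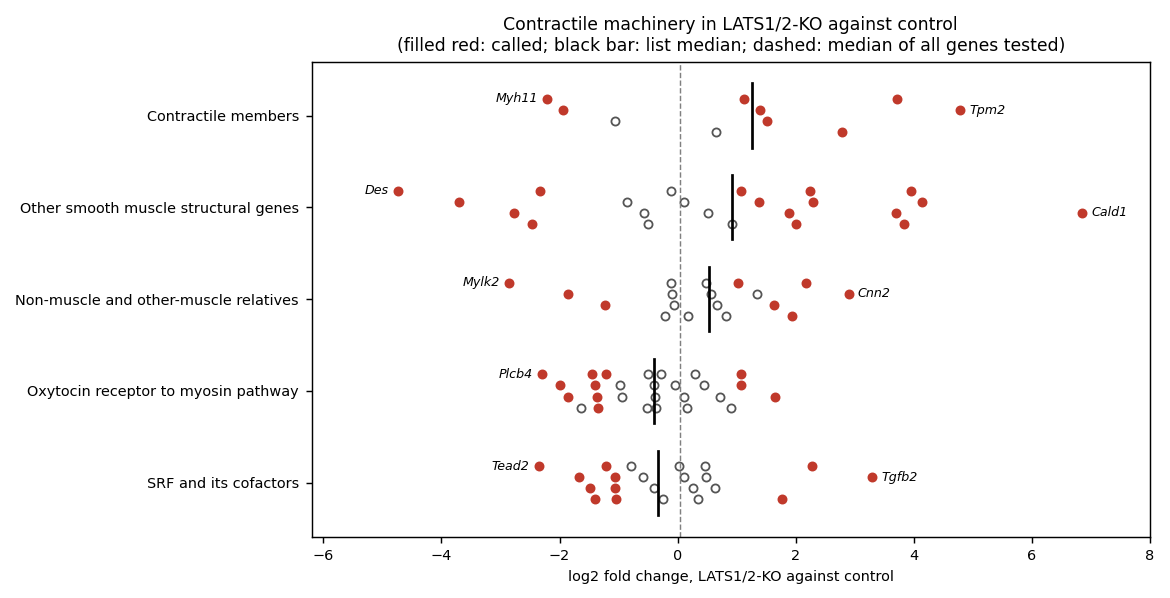
Log2 fold change in LATS1/2-KO against control (linear axis) of every tested gene of 5 lists, with called genes in filled red, a black bar at each list's median and a dashed line at the median of all genes tested; vertical offsets within a list only separate points. The contractile genes and the other structural genes have medians of 1.26 and 0.93 with members on both sides, and the pathway and SRF lists have medians of -0.40 and -0.32.

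The pathway from the oxytocin receptor to myosin was followed through 28 genes, of which 27 were tested. In LATS1/2-KO against control, 3 were called higher and 8 lower, against 17.1% and 17.5% of all genes tested. The median of the log2 fold changes was -0.40. Phospholipase C beta 4 (Plcb4), which makes the messenger that releases calcium, had the largest fall at -2.30 (SE 0.31, adjusted p = 0.000155), with mean normalized counts of 2501 in control and 507 in LATS1/2-KO. Calm2 (0.72) was the most abundant gene of the list per exon length and did not reach the fold threshold. Among those chosen after their values were seen, the calcium release channels Itpr1 (-1.86, SE 0.19) and Itpr2 (-1.99, SE 0.15) fell. The G proteins that couple to the receptor, Gnaq (-0.39) and Gna11 (-0.50), were lower without reaching the fold threshold. In LATS1/2-Sox9-KO against LATS1/2-KO, 1 of the 27 was called, the phospholipase Plcb1 (-1.67, SE 0.30, adjusted p = 0.0141).

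The SRF list held SRF, its cofactors and other regulators of smooth muscle genes, with 22 of 23 tested. In LATS1/2-KO against control, 3 were called higher and 8 lower, against 17.1% and 17.5% of all genes tested. The median of the log2 fold changes was -0.32. Srf itself was lower at -0.79 (SE 0.19, adjusted p = 0.00574), under the fold threshold, and was called in LATS1/2-Sox9-KO at -1.18 (SE 0.19, adjusted p = 0.000492). Its actin-sensing cofactor Mrtfb fell (-1.05, SE 0.13, adjusted p = 7.77e-05) and Mrtfa did not pass (-0.25, adjusted p = 0.285). Myocardin (Myocd) had between 0 and 9 counts per library and was not tested.

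TEAD factors split within the same list. Tead1 (1.77, SE 0.19) and Tead4 (2.29, SE 0.17) rose in LATS1/2-KO, while Tead2 (-2.35, SE 0.24) and Tead3 (-1.40, SE 0.12) fell. Tgfb2, a TGF-beta ligand, had the largest rise of the list at 3.30 (SE 0.42), and Tgfb1 fell (-1.66). Klf4, a repressor of smooth muscle genes, fell (-1.48), as did Mef2d (-1.21), Elk1 (-1.06) and Smad3 (-1.06). Between the knockout groups, 1 of the 22 was called, Tead2, which was lower in LATS1/2-Sox9-KO (-1.29, SE 0.23, adjusted p = 0.0142).

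Markers of basal epithelium that are not contractile were compared with the contractile genes. Of 26 tested, 13 were called higher and 5 lower in LATS1/2-KO, against 17.1% and 17.5% of all genes tested. The median of the log2 fold changes was 0.99. Keratin 14 (Krt14) had the largest rise, with 909.3, 501.2 and 606.1 normalized counts in control and 252969, 140251 and 139506 in LATS1/2-KO (8.04, SE 0.52). Trp63, the transcription factor that defines basal cells, had the largest fall, from 373.5, 2153 and 2133 to 70.2, 40.7 and 53.8 (-4.82, SE 0.71). Keratin 5 (Krt5), chosen after its values were seen, did not pass (0.06, adjusted p = 0.935). Between the knockout groups (LATS1/2-Sox9-KO against LATS1/2-KO), 2 of the 26 were called higher, Krt17 (2.76) and Procr (3.26), and 2 lower, Mme (-1.52) and Etv5 (-1.76). In LATS1/2-KO against control, 10 of the 23 luminal markers were called, all of them lower, against 17.5% of all genes tested. The median of their log2 fold changes was -0.74. In that comparison 3 luminal markers, Krt8, Krt18 and Wfdc18, were higher at an adjusted p of 0.05 or less (edgeR's test). They stayed under the fold threshold. Another 3 luminal markers were lower in the same way. DESeq2 called 0 luminal markers higher, and the GC content offset called 2 higher. Krt14 and Trp63 were named as the largest rise and the largest fall of the basal list, so their opposite directions follow from that choice.

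Vascular smooth muscle, pericytes and stromal cells also express contractile genes, so their markers were summed as FPKM in every library. The 12 pericyte and vascular smooth muscle markers summed to 65.1, 61.55 and 46.6 in control, 43.4, 22.2 and 29.4 in LATS1/2-KO, and 19.9, 15.7 and 16.6 in LATS1/2-Sox9-KO. Notch3, which other cells use as well, was the most abundant of them in every control library and fell in LATS1/2-KO (-2.70, SE 0.30). The other 11 markers summed to 15.3, 15.3 and 8.44 in control, 34.1, 18.6 and 21.5 in LATS1/2-KO, and 12.7, 7.77 and 7.54 in LATS1/2-Sox9-KO. Without Notch3 the sum was thus higher in every LATS1/2-KO library than in any control library. Mcam, an adhesion molecule of pericytes and other cells, was the most abundant marker in the LATS1/2-KO libraries, at 30.9, 17.3 and 20.1 FPKM against 14.02, 14.5 and 6.99 in control, and stayed under the fold threshold (0.95, adjusted p = 0.0337). The next 3 markers were chosen after their values were seen. Rgs5, a pericyte marker, had 141.5, 102.1 and 189.2 normalized counts in control and 45.1, 39.8 and 3.6 in LATS1/2-KO, and it fell (-2.28, adjusted p = 0.0175). Cspg4 went the other way, with 1, 6 and 5 raw counts in control and 34, 30 and 15 in LATS1/2-KO. Pdgfrb also had a higher mean in LATS1/2-KO (0.156 against 0.0807 FPKM), with libraries that overlapped. Of 8 markers of this list tested, 2 were called higher and 2 lower (median of the log2 fold changes 0.94), with Gja4 at 3.58 as the largest rise. For this and the later cell type lists, the shares over all genes tested were 17.1% higher and 17.5% lower in LATS1/2-KO. Whether fewer such cells or less RNA per cell lay behind a level cannot be told apart in bulk samples, and the part of these cells in the contractile levels was not tested.

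**Figure D5:**
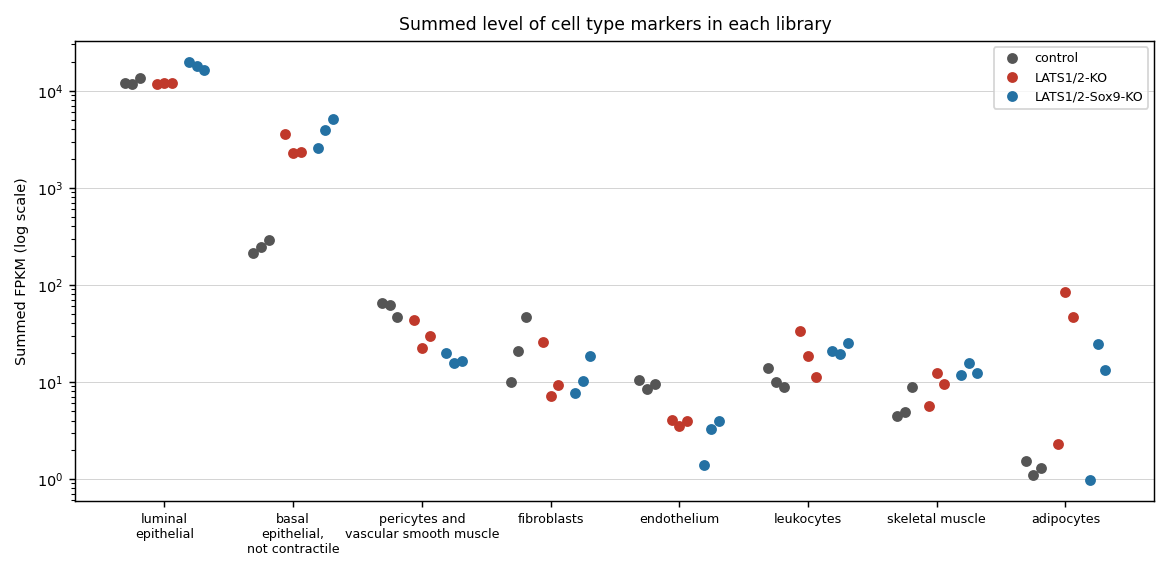
Summed FPKM on a log axis of 8 lists of cell type markers, with a point for each of the 3 libraries per group (replicates 1 to 3 from left to right). Luminal markers dominate every library, basal markers are higher in both knockout groups, the sum of pericyte and vascular markers, which Notch3 leads in control, is lower, and adipocyte markers are high in replicates 2 and 3 of both knockout groups and near control in replicate 1.

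Adipocyte markers stood apart by library. The 7 markers summed to 1.53, 1.09 and 1.30 FPKM in control, 2.31, 85.0 and 47.0 in LATS1/2-KO, and 0.982, 24.7 and 13.2 in LATS1/2-Sox9-KO, and 6 of the 7 were called higher in LATS1/2-KO. Cfd, the most abundant of them by its mean over the 9 libraries, had no count in any control library. Among the contractile genes, Acta2, Myl9 and Oxtr ranked the LATS1/2-KO libraries in the same order as the adipocyte sum, lowest in replicate 1 and highest in replicate 2, and Mylk ranked them in the reverse order. In LATS1/2-Sox9-KO, Acta2, Myl9, Myh11 and Mylk followed the order of that group's sum. Cnn1 reversed it there, and Oxtr did not follow it. Few orders of 3 libraries exist, and the share of all genes with these orders was not computed. In LATS1/2-KO replicate 1, which had the least adipocyte signal of its group, Oxtr (143.4 normalized counts) was below control and Actg2 (19.1) within it. The part of adipocytes in the contractile levels was not tested. The markers of fibroblasts summed to 10.03, 20.8 and 46.2 in control, 25.7, 7.19 and 9.25 in LATS1/2-KO, and 7.77, 10.2 and 18.7 in LATS1/2-Sox9-KO. Dcn was the most abundant of them in control, and Col1a1 or Col3a1 was above it in every knockout library except LATS1/2-KO replicate 3. Of the 12, 5 were called higher, led by Mfap5 (6.44), and 2 lower, led by Col6a3 (-4.85).

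Endothelial markers summed to 8.55 to 10.4 FPKM in control, 3.53 to 4.03 in LATS1/2-KO and 1.39 to 3.96 in LATS1/2-Sox9-KO. Of the 10, Kdr was called higher (2.43) and 2 were called lower, led by Vwf (-4.99). Vwf was the most abundant marker in control only, and without it the sums were 3.92, 3.22 and 3.57 in control and 3.72, 3.45 and 3.76 in LATS1/2-KO, which overlapped. Leukocyte markers summed to 8.80 to 14.04 in control, 11.3 to 33.1 in LATS1/2-KO and 19.2 to 25.5 in LATS1/2-Sox9-KO, and in LATS1/2-KO against control 2 of 8 tested were called higher, one of them Csf1r (3.87). Cd3e had no count in any library. Skeletal muscle markers, led by Mb, summed to 4.49 to 8.89, 5.70 to 12.2 and 11.7 to 15.6 in the same order of groups. The smallest unadjusted p of the 4 tested was 0.0693 in LATS1/2-KO against control, while in LATS1/2-Sox9-KO against control 2 of the 4 were called higher, Mb (1.23) and Mylpf (1.02). The part of these cell types in the contractile levels was not tested.

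The libraries were also compared across the 10 genes. LATS1/2-KO replicate 2 was the highest of its group in 6 of the 10 genes, LATS1/2-Sox9-KO replicate 2 in 6 and control replicate 1 in 5. In LATS1/2-KO the highest library exceeded the lowest by 10.4 times for Actg2, 7.0 for Oxtr and 3.62 for Mylk, and by less than that for the other genes. No single library was thus at one end for all genes.

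Genes with the most similar profile over the 9 libraries were ranked by the root-mean-square difference of log2 normalized counts, each centred on its own mean, among tested genes whose mean was 100 normalized counts or more. A smaller value means closer profiles. Tpm1 had the closest match of the set, Ext1, at 0.116, followed by Ctps (0.163) and Tuba1a (0.167). Cnn1 was closest to Zfp521 (0.143), Spon1 (0.236) and Itgb8 (0.243), and Myl9 to B330016D10Rik (0.173), Phf7 (0.200) and Phip (0.212). Acta2 was closest to Cpe (0.182), Pde7a (0.216) and Tdrp (0.288), and Tpm2 to Msn (0.241), Sema3c (0.242) and Sgo2a (0.248).

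Myh11 was closest to Srxn1 (0.217), Rsad1 (0.230) and Liph (0.266), Tagln to 1190002N15Rik (0.318), Actr3b (0.377) and Ptx3 (0.381), and Mylk to Ltbp4 (0.332), Sel1l3 (0.377) and Dmtn (0.383). Oxtr was closest to the luminal progenitor marker Kit (0.343), then Reck (0.389) and Gna14 (0.437). Actg2 had no close match, with Cyp2f2 at 0.558, Mmachc at 0.758 and Mettl8 at 0.760. None of the 10 genes had another of the 10 among its 3 closest, although Actg2 lay under the minimum of 100 and could not be a match. All values share the same 9 libraries, so these distances are a description.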

How the data were processed

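RNA was sequenced from EYFP+ cells in 9 libraries, 3 for each of 3 genotypes. The authors aligned reads to mm10 with STAR 2.6.0c and, with featureCounts, counted proper pairs that aligned uniquely to each Ensembl gene (Subread 1.6.2). The deposited values are these raw counts per gene and library, without mitochondrial genes and with no pooling of columns. The methods name same-strand pairs, and whether the kit marks strand is not given in the sources used here. Groups and replicate numbers came from the sample labels.

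Of 55450 genes, 55190 were matched to GENCODE M21 (GRCm38), and the other 260 held 0.00651% of the counts. The counts were filtered with filterByExpr, normalized by TMM and fitted with edgeR 4.0.16 in R 4.3.3, as 1 quasi-likelihood model of 3 group means, with Benjamini-Hochberg adjustment. The smallest two-sided p of an exact permutation test of 3 against 3 is 0.1. FPKM was computed here from union exon lengths and TMM library sizes. No 2 libraries of a group agreed within sampling noise.

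Alternatives were DESeq2 1.42.0, RLE or upper-quartile factors, normalization without the 100 genes of highest count, no filter on low counts, a minimum of 10 counts per library, a fit of the 2 compared groups, the replicate number as a block, glmTreat, a GC content offset, and each library left out. The code was tested on simulated data.

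The named genes were the 10 contractile genes, the targeted genes, the relatives, the SRF list, the largest called rise and fall and the most abundant gene (mean over libraries) of each other list, and the 3 closest profiles per gene. The members and the lists were chosen with earlier results of these data known, and cell type lists were written from general knowledge. The reads, and so the deleted exons, were not analysed here. Some single-gene results are left out of the text.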

Additional observations from a re-analysis of the deposited data

How the results depend on the processing

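Of 567 values of the 10 contractile genes under 19 alternatives and 3 comparisons, 532 kept their direction and their side of the threshold, 21 lost a call, 6 gained one and 8 reversed. Acta2, Tpm1, Tpm2 and Myh11 in LATS1/2-KO against control, and Acta2, Tpm1, Tpm2 and Mylk in LATS1/2-Sox9-KO against control, kept their calls under all 19, as did Cnn1 in LATS1/2-Sox9-KO against LATS1/2-KO. Actg2, at 2 to 53 counts per library, had the largest SE of the 10 in LATS1/2-KO against control (0.80). Where a value changed, the cause was not tested.

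The replicate number as a block turned Mylk in LATS1/2-Sox9-KO against LATS1/2-KO to 0.060 and changed no call of the contractile genes. Correlations of the deviations of same-numbered libraries ran from -0.059 to 0.150, so the numbers were not treated as pairs, and not every library correlated best with its own number. Between the 2 knockout groups the same-numbered values were 0.099, 0.150 and -0.026 for replicates 1, 2 and 3. Libraries of unlike number in these groups had -0.147 to 0.048. Whether same-numbered knockout libraries shared a batch was not tested.

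Testing against a fold of 2 with glmTreat left the estimates as they were but removed the calls of Tagln (1.52), Myl9 (1.12), Cnn1 (1.39) and Mylk (-1.95) in LATS1/2-KO against control, Myh11 (-1.23) and Oxtr (-1.90) in LATS1/2-Sox9-KO against control, and Acta2 (-1.34) and Oxtr (-2.55) in LATS1/2-Sox9-KO against LATS1/2-KO. It called 3 contractile genes higher and 1 lower in the first comparison, 1 lower in the second and 1 lower in the third. Over all genes it called 1962 higher and 2043 lower, 2240 and 2468, and 18 and 14. In LATS1/2-KO against control it called 3 relatives higher and 1 lower, 1 oxytocin pathway gene higher, 4 SRF list genes lower, 2 basal markers lower, 1 pericyte marker higher and 1 lower, 2 fibroblast markers higher and 1 lower, and 3 adipocyte markers higher. In LATS1/2-Sox9-KO against LATS1/2-KO it called 0 relatives higher and 0 structural, pathway, SRF list or basal genes lower.

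The GC content offset gave Myh11 -0.91 in LATS1/2-Sox9-KO against control, which was no longer called, and 1.02 against LATS1/2-KO, which was then called (1 contractile gene higher). It gave Mylk 0.0024 in the latter. In LATS1/2-KO against control it called 4 SRF list genes and 1 relative lower, and 2 luminal markers higher. With no filter on low counts Myh11 was 1.02 in LATS1/2-Sox9-KO against LATS1/2-KO and called (1 contractile gene higher), and 5 basal markers were called higher. In the same comparison DESeq2 called 479 genes higher, 730 lower and 4 basal markers higher, the fit of 2 groups gave Oxtr -2.55 without a call, and a minimum of 10 counts in every library called 0 relatives higher. That minimum, which tested fewer genes, called 3 structural genes lower, 0 pericyte markers higher and 1 lower, 3 fibroblast and 2 adipocyte markers higher in LATS1/2-KO against control. The fit of 2 groups called 2 adipocyte markers higher there.

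When each library was left out in turn, the log2 fold changes in LATS1/2-KO against control ranged from 0.83 to 1.30 for Myl9 and from -0.39 (without LATS1/2-KO replicate 2) to 1.09 (without replicate 1, called) for Oxtr. In LATS1/2-Sox9-KO against control they ranged from -1.50 to -0.99 for Myh11, -2.06 to -1.75 for Oxtr, -0.0087 (without LATS1/2-Sox9-KO replicate 1) to 0.80 for Tagln and -0.40 (without replicate 2) to 0.77 for Actg2. In LATS1/2-Sox9-KO against LATS1/2-KO they ranged from -2.98 to -1.50 for Oxtr, -1.52 to -0.72 for Tagln (called without LATS1/2-Sox9-KO replicate 1), -1.07 to -0.59 for Myl9 (called without LATS1/2-KO replicate 1), 0.72 to 1.23 for Myh11 (called without LATS1/2-Sox9-KO replicate 1) and -0.40 to 0.34 for Mylk, which was 0.34 and 0.048 without LATS1/2-KO replicates 1 and 3 and 0.29 without LATS1/2-Sox9-KO replicate 1. Contractile genes called ranged from 1 to 3 lower in the second comparison and 0 to 1 higher in the third.

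Over all genes in the third comparison, leaving out libraries gave 121 to 497 higher and 78 to 582 lower. The upward count was 497 without LATS1/2-KO replicate 1, 121 without its replicate 3 and 123 without LATS1/2-Sox9-KO replicate 2. The downward count was 157 without LATS1/2-KO replicate 3, and 222, 78 and 210 without LATS1/2-Sox9-KO replicates 1, 2 and 3. Leaving out libraries in LATS1/2-KO against control called 3 to 5 relatives, 1 to 3 pericyte markers, 3 to 6 fibroblast markers and 3 to 6 adipocyte markers higher, and 1 to 2 fibroblast markers lower. In the third comparison it called 0 to 1 relatives, 0 to 1 SRF list genes and 2 to 4 basal markers higher, and 1 to 2 structural genes, 0 to 1 pathway genes, 0 to 1 SRF list genes and 1 to 2 basal markers lower.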
